A study of Mus musculus with 2 samples.

Results

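The transcripts of p53 and of its target genes were followed in Th17 cells whose *Fak* gene, listed as *Ptk2*, had been targeted with Cre recombinase. The members were 35 gene names, comprising *Trp53* (which encodes p53), its regulators and established mouse targets for growth arrest, cell death, DNA repair and metabolism. Of these, 34 were found by symbol among the 23282 rows of the count tables. The name *Tap63*, used for isoforms of *Trp63* that carry the transactivation domain, had no row. *Trp63* itself had 0 reads in both libraries, and a count of 0 allows up to 0.217 CPM (Control) and 0.244 CPM (RV-Cre), where CPM is reads scaled to a common library size.

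The data were 2 bulk RNA-seq libraries, 1 per condition. Naïve CD4 T cells from spleens of *Fak* fl/fl mice were transduced either with a control retrovirus or with RV-Cre, a retrovirus that carries Cre. Both cultures were activated with anti-CD3ε bound to the plate (10 μg/ml) and with anti-CD28 in solution (5 μg/ml). Th17 polarization used IL-6 (50 ng/ml), TGFβ1 (1 ng/ml), TNF-alpha (1 ng/ml) and IL-1beta (2 ng/ml), with antibodies to IFNgamma and IL-4 (each 5 μg/ml). Culture lasted 3 days. According to the study's methods the mice were female and the cells sequenced were GFP+, that is, transduced. The Control library is labelled WT for genotype, although its title names floxed cells with the control virus. No strain or age is given in the labels, although the study's methods state an age range for the mice. Effects of Cre itself and of *Fak* deletion cannot be told apart here.

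Counted reads numbered 13799264 for Control and 12305010 for RV-Cre, of which the members took 16272 and 14318. *Ptk2* had 110 and 31 reads, a ratio of 0.318. The labels name a kit whose reads come mainly from the 3′ end of transcripts, but its catalogue number may be that of a kit that reads whole transcripts. Where in *Ptk2* the reads lie is therefore not known, and they do not check the deletion itself. The defining T cell genes were present in both libraries, with *Cd3e* at 1453 and 2884 reads and *Cd4* at 1489 and 1342. Of the 6 listed T cell markers, *Cd3d* and *Cd3e* were at least 2-fold higher in the RV-Cre library, and the summed reads of all 6 had a ratio of 1.57. Summed reads on other markers were 135 and 187 for 6 myeloid genes and 696 and 919 for 5 CD8 T and NK cell genes. Of B cell genes, *Cd79a* had 6 and 30 reads, *Ms4a1* 7 and 16, and *Cd79b* 18 and 11. Of erythroid genes, *Hba-a1* had 30 and 165 reads and *Hbb-bs* 3 and 16. At least 2-fold higher among these were *Cd79a*, *Ms4a1*, *Csf1r*, *Cd8a*, *Cd8b1*, *Hba-a1* and *Hbb-bs*, and lower *Itgax*, *Lyz2* and *Klrd1*. The B cell gene *Pax5* was at 0 in both libraries. *Adgre1* and *Ncr1* were at 0 in Control and *Klrb1c* in RV-Cre. The part of these markers in the results was not tested. In bulk RNA, fewer cells that use a gene and less of its RNA per cell cannot be told apart.

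p53 is a transcription factor that is made continuously and destroyed continuously in unstressed cells. The ubiquitin ligase MDM2, itself a p53 target, marks it for degradation, and MDM4 masks its transactivation domain. After DNA damage, kinases release p53 from this control, and its level and activity are then set largely at the protein. Its targets halt the cell cycle, repair DNA or start apoptosis. In T cells, which divide fast after stimulation of the antigen receptor, the pathway restrains expansion and takes part in death by cytokine withdrawal. Protein was not measured in these libraries.

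Throughout, a ratio is that of normalized reads, RV-Cre over Control, after scaling by the TMM method. The interval beside it is the exact Clopper-Pearson 95% interval on the split of reads. It covers counting error only and compares these 2 libraries, not the conditions, since no difference has a replicate check. A log2 ratio is that of normalized reads plus 1. A gene passed the expression minimum at 15 normalized reads in at least 1 library. It was called higher or lower at a change of 2-fold. Of the 12112 genes that passed, 14.2% were called higher and 12.3% lower. No level was compared between genes, since no length correction is given. Where reads of a gene are given per read of another, only the change of that quantity between the libraries is read.

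p53 binds as a tetramer to pairs of the decamer known as the p53 consensus. The RefSeq promoter sequences (GRCm38.p6, 250 bases before to 50 after a start site) held 26 of the members by symbol. They were searched for 2 adjoining decamers with a gap of 0 or 1 base and at most 1 base off the consensus over the 20 positions. The decamer is its own reverse complement, so 1 pass covers both strands. Such a pair was found for 6 of the 26 members, against 0.211% of all 27025 genes with a promoter. A single exact decamer was found for 13 of the 26 members (50.0%), against 9.55% of all genes. The limits on gap and mismatch were set after the members' promoters had been seen. The 6 pairs are shown because their genes differed in direction between the libraries. Capitals mark the 4 central positions of each decamer.
*Cdkn1a*: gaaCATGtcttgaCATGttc
*Ccng1*: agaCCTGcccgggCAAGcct
*Bax*: aagCATAtcccaggCAAGctt
*Polk*: gaaCTAGcctcaaaCTTAttc
*Rps27l*: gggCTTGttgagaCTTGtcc
*Gtse1*: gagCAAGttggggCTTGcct

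The *Cdkn1a* pair (chr17:29090928-29090947, plus strand) starts 51 bases before the more upstream of 2 start sites in the table. The *Ccng1* pair (chr11:40755462-40755481, minus strand) and the *Bax* pair (chr7:45467090-45467110, minus strand) have their first base at -195 and -212 from the start site. The *Polk* pair (chr13:96519398-96519418, minus strand) and the *Rps27l* pair (chr9:66946296-66946315, plus strand) start 231 and 117 bases before 1 of 2 start sites. The *Gtse1* pair (chr15:85859945-85859964, plus strand) begins 1 base before a start site, and its second decamer forms another pair with the next, gggCTTGcctctgaCTTGcct (chr15:85859955-85859975). A sequence match says nothing of whether p53 was bound, and sites outside these windows were not searched. *Pmaip1*, *Trp53inp1*, *Zmat3*, *Tnfrsf10b*, *Ddb2*, *Xpc*, *Rrm2b* and *Perp* were not in the promoter table.

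*Trp53* itself was lower in the RV-Cre library, while the genes for its main inhibitors were not. *Trp53* had 2013 reads (Control) and 879 (RV-Cre), or 1895 and 934 after scaling. Its ratio was 0.493 (95% interval 0.455 to 0.534) and its log2 ratio -1.02, close to the 2-fold line. With library totals computed without the ribosomal RNA gene *Rn45s*, which took 8.50% and 14.6% of the reads, the log2 ratio was -0.93 and the gene was not called. It was not called with quantile normalization (-0.91) or with scaling to *Gapdh* (-0.60) either. *Mdm2*, the ubiquitin ligase, had 1382 and 1176 reads, a ratio of 0.960 (0.888 to 1.04) whose interval holds 1. *Mdm4*, its partner, had 1136 and 1284 reads, a ratio of 1.28 (1.18 to 1.38). *Ppm1d*, which encodes a phosphatase that switches the damage response off, had 257 and 258 reads, a ratio of 1.13 (0.949 to 1.35). The log2 ratio of *Mdm2*, -0.06, turned to above 0 under quantile normalization, without *Rn45s* and with scaling to *Gapdh*.

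These differences can be written without any scaling, as reads of a gene per read of *Trp53* in the same library. Since *Trp53* was 2.03-fold lower after scaling, a gene with a ratio of 1 also rises by that much per *Trp53* read. *Mdm2* had 0.687 reads per *Trp53* read in Control and 1.34 in RV-Cre, an increase of 1.95-fold (95% interval 1.74 to 2.18). For *Mdm4* the same quantity went from 0.564 to 1.46, an increase of 2.59-fold (2.31 to 2.90). For *Ppm1d* it increased by 2.30-fold (1.89 to 2.79). *Trp53* lies at chr11:69580348-69591873 on the plus strand. An annotated processed pseudogene, *Trp53-ps*, has no row of its own, and the treatment of reads that match both was not given in the sources used here.

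**Figure D1:**
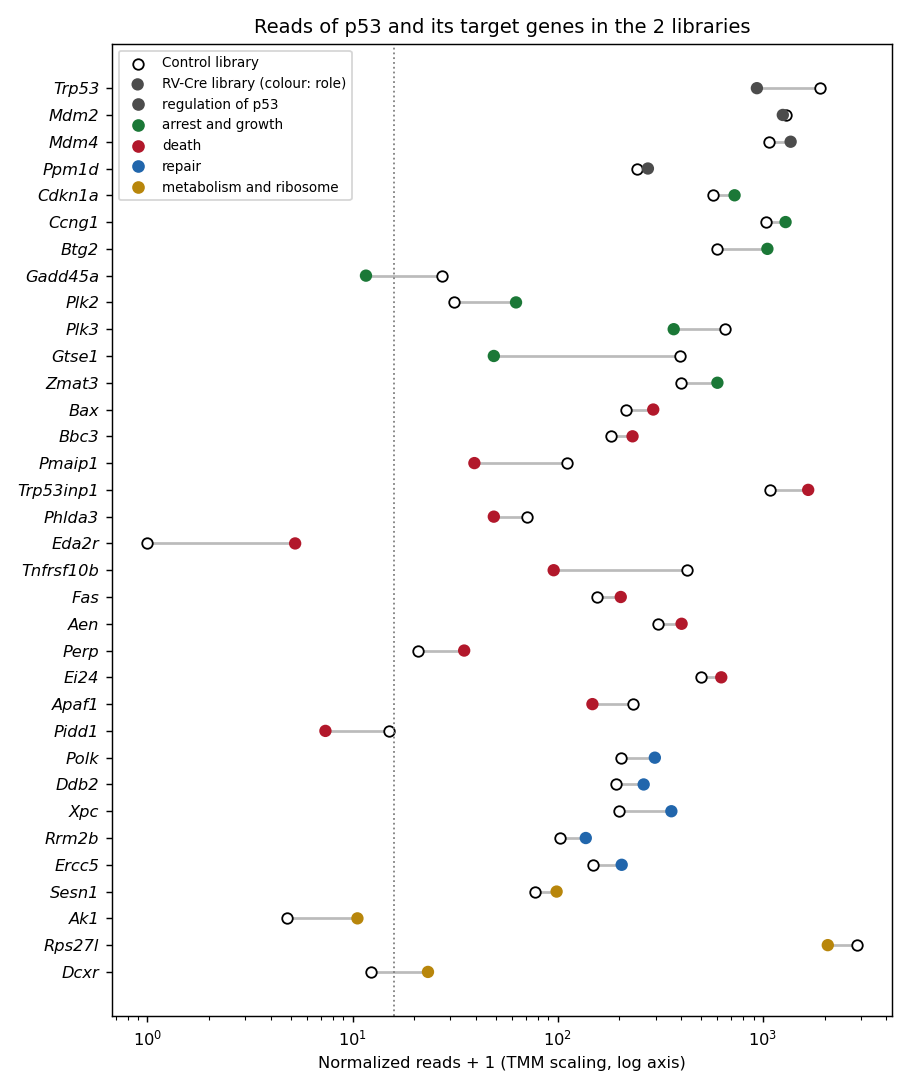
Normalized reads plus 1 of the 34 members in the 2 libraries (horizontal log axis, 1 line per gene, grouped by role). Open circles are the Control library and filled circles the RV-Cre library, with colours for roles, and the dotted line is the expression minimum. *Trp53*, *Gtse1*, *Pmaip1* and *Tnfrsf10b* lie to the left in the RV-Cre library, whereas most others lie slightly to the right.

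The arrest genes that are read most often as p53 output were slightly higher, and others of the group went far apart. *Cdkn1a*, which encodes the CDK inhibitor p21, had 607 and 684 reads, a ratio of 1.27 (1.14 to 1.42). *Ccng1*, which encodes cyclin G1, had 1098 and 1213 reads, a ratio of 1.25 (1.15 to 1.35). Both stayed well inside 2-fold, and per *Trp53* read they increased by 2.58-fold (2.25 to 2.96) and 2.53-fold (2.25 to 2.84). A gene with a ratio of 1 would increase by 2.03-fold per *Trp53* read, because *Trp53* was lower. *Btg2*, an antiproliferative gene, had 632 and 989 reads, a ratio of 1.77 (1.60 to 1.95). *Zmat3*, which encodes an RNA-binding protein, had 423 and 564 reads, a log2 ratio of 0.59 and an interval of the ratio from 1.32 to 1.71. These 4 genes had intervals wholly above 1, as had 4443 of the 12112 genes past the minimum.

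The polo-like kinase genes *Plk2* and *Plk3*, which encode stress-responsive kinases, went in opposite directions. *Plk2* had 32 and 58 reads, a ratio of 2.05 (1.31 to 3.26), and was the only member called higher. Its log2 ratio of 1.01 is at the threshold, and the call was lost with library totals (0.9997), DESeq2 size factors (0.99), quantile normalization (0.83) and a pseudocount of 10 (0.84). *Plk3* had 690 and 345 reads, a ratio of 0.564 (0.494 to 0.643), short of 2-fold. Exons of *Plk3* overlap 84 bases of *Tctex1d4* on the other strand, which had 476 and 300 reads, and no source used here says whether counting was by strand. Reads of *Plk3* per read of *Plk2* were 21.6 in Control and 5.95 in RV-Cre. *Cdkn1a*, *Bax*, *Ei24* and *Rrm2b* overlap exons of annotated genes that have no row.

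*Gadd45a*, a damage-inducible gene that acts on cell cycle kinases, had 28 and 10 reads, a ratio of 0.403 (0.175 to 0.855). It passed the minimum only through the Control library, where it is higher, and its call was lost with a pseudocount of 10 and with scaling to *Gapdh*. Its exons overlap 337 bases of *E230016M11Rik* on the other strand, which had 3 and 0 reads. *Gtse1*, which encodes a microtubule-binding protein made in G2 that moves p53 out of the nucleus, differed most of the members past the minimum. It had 419 reads in Control and 45 in RV-Cre, a ratio of 0.121 (0.0871 to 0.165), that is 8.25-fold lower. Of all genes past the minimum, 1.14% had a log2 ratio as low as its -3.02.

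**Figure D2:**
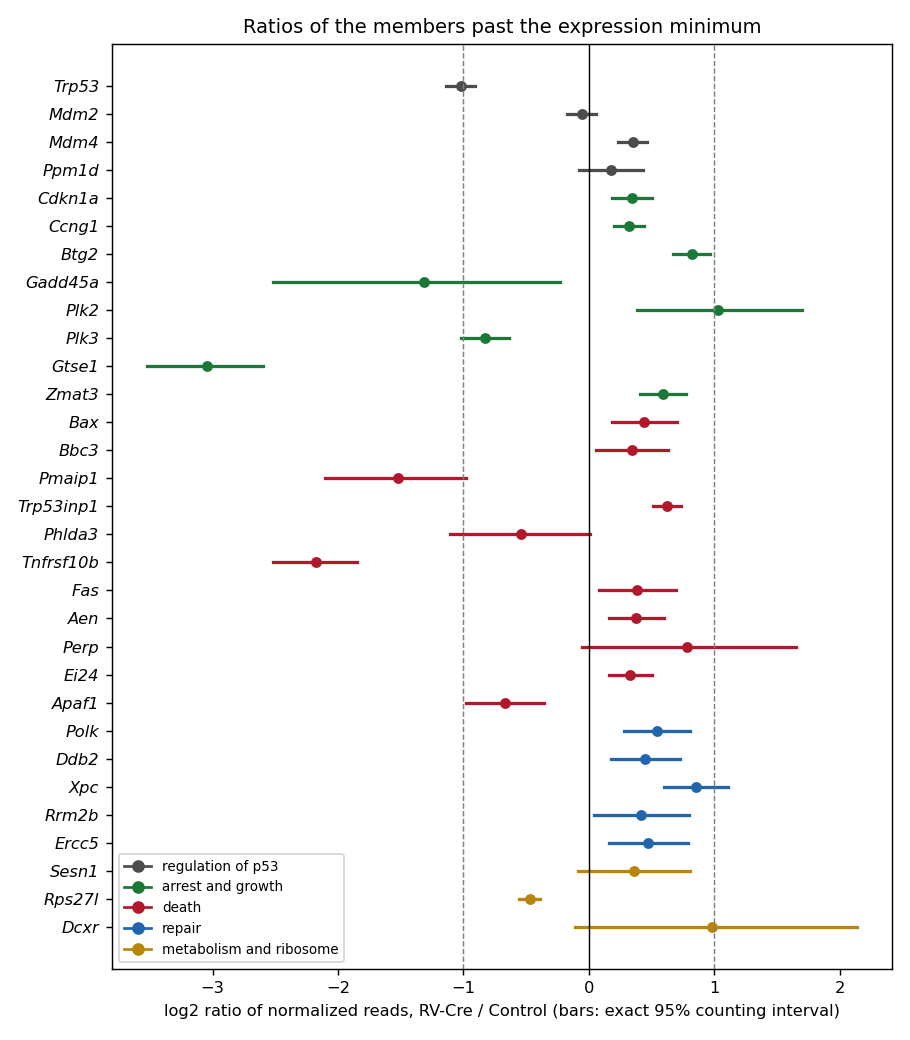
Log2 ratio of normalized reads with no pseudocount, RV-Cre over Control, for the 31 members past the expression minimum (points), with exact 95% counting intervals (bars) and colours for roles. Dashed lines mark 2-fold. *Gtse1* and *Tnfrsf10b* lie wholly below the lower line, and the 5 repair genes lie between 0 and about 1.

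Among the death genes, those of the mitochondrial pathway differed in direction. *Bax*, which encodes the protein that opens the outer mitochondrial membrane, had 228 and 274 reads, a ratio of 1.36 (1.13 to 1.62). *Bbc3*, which encodes the BH3-only protein PUMA, had 193 and 217 reads, a ratio of 1.27 (1.04 to 1.55). *Pmaip1*, which encodes the BH3-only protein NOXA, had 117 and 36 reads, a ratio of 0.347 (0.232 to 0.508), and was called lower. Reads of *Pmaip1* per read of *Bbc3* thus went from 0.606 to 0.166, 3.65-fold lower. *Apaf1*, which encodes the scaffold of the apoptosome, had 247 and 138 reads, a ratio of 0.631 (0.508 to 0.780). Per *Bax* read it went from 1.08 to 0.504.

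The death receptors on this list went apart in the same way. *Fas* had 164 and 190 reads, a ratio of 1.31 (1.06 to 1.62). *Tnfrsf10b*, which encodes the mouse TRAIL receptor, had 454 and 89 reads, a ratio of 0.221 (0.174 to 0.278), or 4.52-fold lower. There were 2.77 reads of *Tnfrsf10b* per read of *Fas* in Control and 0.468 in RV-Cre, 5.91-fold lower, a value that no scaling by library affects. *Eda2r*, a receptor for ectodysplasin A2, had 0 and 4 reads and did not pass the minimum.

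The other death genes stayed inside 2-fold. *Trp53inp1*, which encodes a p53 cofactor linked to death and autophagy, had 1144 and 1564 reads, a ratio of 1.54 (1.43 to 1.67). *Aen*, an apoptosis-enhancing nuclease gene, had 327 and 377 reads, a ratio of 1.30 (1.12 to 1.51). *Ei24*, an endoplasmic reticulum protein gene, had 529 and 589 reads, a ratio of 1.26 (1.12 to 1.42). These 3 genes were higher by more than counting error, as were 4443 of the 12112 genes past the minimum. *Phlda3*, an inhibitor of AKT signalling, had 74 and 45 reads, a ratio of 0.686 (0.463 to 1.01). *Perp*, a membrane protein gene, had 21 and 32 reads, a ratio of 1.72 (0.962 to 3.14). The intervals of both hold 1. *Pidd1*, the scaffold of the caspase-2 complex, had 15 and 6 reads and did not pass the minimum.

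The DNA repair members were all higher, each by more than counting error and each by less than 2-fold. Of the 12112 genes past the minimum, 4443 were higher by more than counting error, and of the 31 members 17 were. *Xpc*, the damage sensor of nucleotide excision repair, had 210 and 336 reads, a ratio of 1.81 (1.52 to 2.16). *Ddb2*, which recognizes ultraviolet lesions in chromatin, had 203 and 246 reads, a ratio of 1.37 (1.13 to 1.66). *Ercc5*, which encodes the endonuclease XPG, had 156 and 192 reads, a ratio of 1.39 (1.12 to 1.73). These 3 act in the same repair pathway. *Polk*, a translesion polymerase gene, had 216 and 279 reads, a ratio of 1.46 (1.22 to 1.75). *Rrm2b*, which encodes the p53-inducible ribonucleotide reductase subunit, had 108 and 128 reads, a ratio of 1.34 (1.03 to 1.74). Summed over the 5 genes, the reads were 893 and 1181, a ratio of 1.49. Exons of *Ddb2* overlap 652 bases of *Acp2* on the other strand, which had 313 and 476 reads.

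The metabolic and ribosomal members had the fewest clear differences. *Sesn1*, which encodes sestrin 1, an inhibitor of mTORC1, had 81 and 92 reads, a ratio of 1.28 (0.940 to 1.75). *Dcxr*, which encodes an enzyme that reduces sugars and diacetyl, had 12 and 21 reads, a ratio of 1.97 (0.928 to 4.40), and passed only through the RV-Cre library. *Ak1*, which encodes adenylate kinase 1, had 4 and 9 reads and did not pass. *Rps27l*, a ribosomal protein paralog, had 3052 and 1949 reads, a ratio of 0.721 (0.681 to 0.763). Among its paralogs, *Rps27* had 2142 and 2571 reads, a ratio of 1.35, and *Rps27rt* 4073 and 3944 reads, a ratio of 1.09. Reads shared between such copies could have been split by the counting, so the values of this family are uncertain.

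The genes with a p53 consensus pair in the promoter window did not share a direction. *Polk*, *Bax*, *Cdkn1a* and *Ccng1*, whose pairs are printed above, had ratios of 1.46, 1.36, 1.27 and 1.25. *Rps27l* and *Gtse1* were at 0.721 and 0.121. The median log2 ratio was 0.33 over these 6 members and 0.34 over the 17 other members that had a promoter sequence and passed the minimum.

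Over the list, 31 of the 34 members passed the minimum and *Eda2r*, *Pidd1* and *Ak1* did not. *Gadd45a* and *Dcxr* passed through 1 library only, the one where each is higher. At 2-fold, 1 member was called higher (3.23%, against 14.2% of all genes) and 5 were called lower (16.1%, against 12.3%). The 5 are *Gtse1*, *Tnfrsf10b*, *Pmaip1*, *Gadd45a* and *Trp53*. With scaling to *Gapdh*, which itself had 956 and 634 reads, the counts were 7 higher and 3 lower. Of the remaining 25 members, 13 had a log2 ratio between 0 and 0.5, 7 between 0.5 and 1, 3 between -0.5 and -1, and 2 between 0 and -0.5. A log2 ratio above 0 was found for 21 members, or 67.7%, and for 49.6% of all genes. The median log2 ratio was 0.35 for the members and -0.01 for all genes. The interval held 1 for 6 members (19.4%), against 25.3% of all genes. No test was made of the list against other genes. The share called lower and the share whose interval held 1 are near those of all genes and are no result about the list. The low share called higher is no result about it either. Weakly expressed genes, at a mean log2 level of 4 to 6, were called higher in 28.8% of cases, and only 5 members were among them. At levels of 6 to 8, 8 to 10 and above 10, the shares of genes called higher were 9.48%, 4.05% and 3.28%. With a threshold of 1.5-fold, 7 of 31 members and 2847 of 12112 genes were higher.

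The share of ratios near 1 was close to that of the whole table. A log2 ratio within 0.5 of 0 was found for 15 of the 31 members, or 48.4%, and for 47.3% of all genes. By expression level, 8 members had a mean log2 value from 8 to 10, with a median log2 ratio of 0.36 and 0 called, while the 3803 genes at that level had a median of -0.06, 4.05% called higher and 8.60% called lower. From 6 to 8, where 3 of 12 members were called lower, 14.5% of 2858 genes were.

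**Figure D3:**
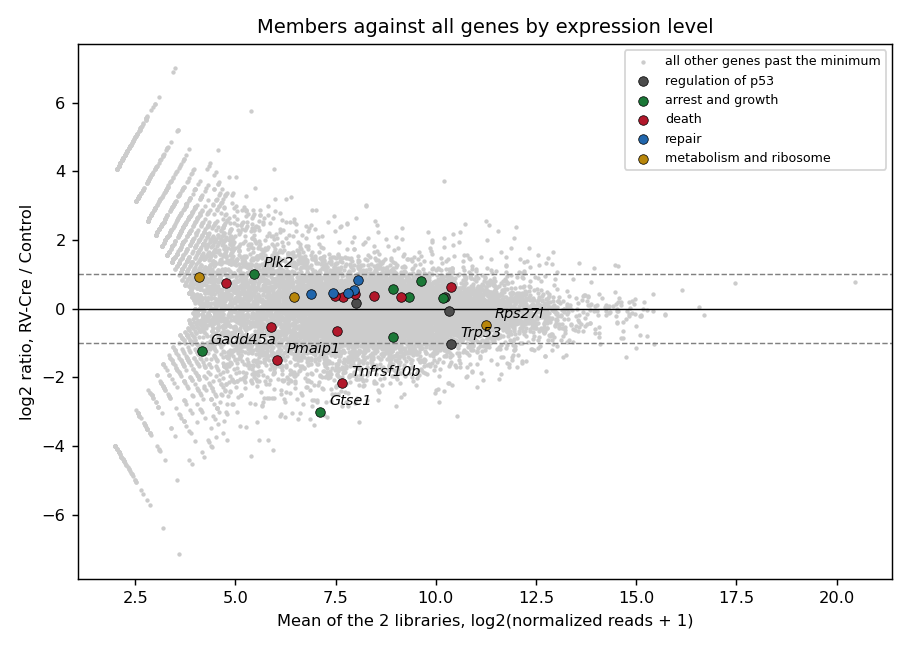
Log2 ratio (vertical) against the mean log2 value of the 2 libraries (horizontal) for the 12112 genes past the minimum (grey) and the 31 members (coloured by role). Dashed lines mark 2-fold. Above 0 are 21 members and below it 10, with *Gtse1*, *Tnfrsf10b*, *Pmaip1*, *Gadd45a* and *Trp53* below the lower line.

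Other genes of the pathway, taken from 3 lists, were read in the same way. Of 24 further genes listed as p53 targets, 19 passed the minimum, 3 were called higher (15.8%, against 14.2% of all genes) and 1 lower (5.26%, against 12.3%), with a median log2 ratio of 0.34. The share called higher is near that of all genes, and the share called lower rests on 1 gene. Neither is a result about the list. Without genes of overlapping exons, the median over the 12 genes left was 0.11. *Gdf15*, a stress cytokine of the TGFβ family, had 0 and 35 reads. Set against the limit of 3 reads in the Control library, it was 13.2-fold higher. The counting interval of its ratio starts lower, at 10.2. *Ephx1*, which encodes microsomal epoxide hydrolase, had 36 and 108 reads, a ratio of 3.39 (2.30 to 5.08). *Sesn2*, the sestrin induced by p53 and by ATF4, had 23 and 0 reads, or 6.79-fold lower against 3 reads in the RV-Cre library. Its counting interval ends at a ratio of 0.196, which is a smaller difference. *Sesn1* had a ratio of 1.28. *Gdf15* and *Sesn2* passed the minimum only through the library where each is high, so that they had to differ. With the minimum asked of both libraries, 2 of 17 genes of the list were called higher and 0 lower. Of all genes, 758 of 10537 were then called higher and 1097 lower. Neither count of the list is a result about it. *Ccnd1*, which encodes cyclin D1, was the remaining gene called higher, with 27 and 65 reads and a ratio of 2.72 (1.71 to 4.43). Exons of *Ccnd1* overlap 1100 bases of *LTO1* on the other strand. Those of *Ephx1* overlap 72 bases of the pseudogene *Gm36961* on the same strand, and neither of these has a row. Of the genes called higher, only *Gdf15* has no such overlap.

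Of 26 genes that act on p53 or beside it, 23 passed, with a median log2 ratio of -0.04. Called higher was 1 (4.35%, against 14.2% of all genes) and lower 3 (13.0%, against 12.3%). The share called lower is near that of all genes, and the share called higher was not compared at matched expression levels. Neither is a result about the list. *Ppp1r13b*, which encodes ASPP1, a protein that directs p53 towards death genes, had 136 and 255 reads, a ratio of 2.12 (1.71 to 2.63). *Chek1* and *Chek2*, which encode checkpoint kinases that phosphorylate p53, had 509 and 136 reads and 196 and 63 reads, with ratios of 0.302 (0.248 to 0.365) and 0.363 (0.269 to 0.484). *Setd8*, a histone H4 lysine methyltransferase gene whose product also methylates p53, was the remaining gene called lower, with 3376 and 1269 reads and a ratio of 0.424. Upstream of the checkpoint kinases, *Atm* had 1331 and 1425 reads and *Atr* 404 and 349, with ratios of 1.21 (1.12 to 1.30) and 0.975 (0.842 to 1.13). The p53 relatives *Trp63* and *Trp73* were at 0 in both libraries.

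The third list holds genes that the DREAM complex represses downstream of p21, nearly all of them cell cycle genes, which earlier results of these data had already shown to be lower in the RV-Cre library. It is therefore no independent evidence. All 22 passed, and the median log2 ratio was -1.85. Called lower were 21 (95.5%, against 12.3% of all genes) and called higher 0 (against 14.2%). *Ccnb2* had 258 and 27 reads, a ratio of 0.118 (0.0763 to 0.176), and *Bub1b* 638 and 78 reads, a ratio of 0.138 (0.108 to 0.175). They have the lowest log2 ratios with the added 1. Without it *Cdc25c*, with 37 and 4 reads and a ratio of 0.122 (0.0316 to 0.340), comes before *Bub1b*. *Gtse1*, at a log2 ratio of -3.02, lay inside the range of this list, from -3.04 to -0.84, and below every other member of the p53 list. *Cdkn1a*, whose product acts ahead of DREAM, had a log2 ratio of 0.35.

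**Figure D4:**
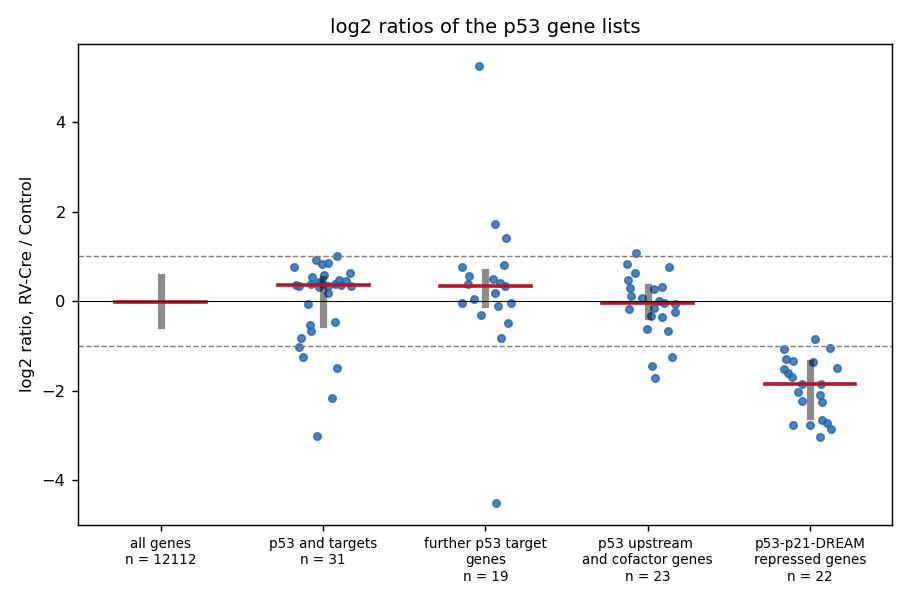
Log2 ratios (vertical) of genes past the minimum in the p53 list, the 3 further lists and all genes. Points are genes, red lines medians and grey bars the middle 50% of genes; the most extreme points of the further targets, *Gdf15* and *Sesn2*, have 0 reads in 1 library and their position depends on the added 1. The medians are 0.35 for p53 and its targets, 0.34, -0.04 and -1.85 for the other lists, and -0.01 for all genes.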

How the data were processed

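Raw counts of reads per gene symbol were deposited for 2 libraries made from 500 ng of total RNA, 1 per condition. The authors' processing notes name bcl2fastq 2.20.0.422, Bowtie2, bedtools and the build mm10, with no parameters, annotation or strand setting. The tables share 23282 rows, of which 79 share a symbol with another row and stayed out of gene lists. Counts were scaled over the whole table with TMM factors (edgeR 4.0.16, R 4.3.3), giving size factors of 1.06 and 0.941. With 1 library per condition no test across genes was possible. Intervals were computed with scipy 1.17.1. Reads carry no molecular identifiers, and the intervals, like the floor of 3 reads set for genes at 0, reflect counting alone. Coordinates are RefSeq's for GRCm38.p6 and exon overlaps GENCODE M21's. The procedure was tested on simulated data. The members and lists were chosen with earlier results of these data known. Every member found was named, and of each other list the 2 largest changes in each direction past 2-fold by the log2 ratio with pseudocount 1, with *Atm*, *Atr*, *Trp63*, *Trp73*, *Ccnd1*, *Setd8*, *Cdc25c* and the genes used for scaling, cell markers and *Rps27* paralogs added after their values were seen. Alternatives were other minimums, thresholds, pseudocounts, scalings (DESeq2 1.42.0 among them) and leaving out genes with overlapping exons. Some listed cell markers are not reported here.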

Additional observations from a re-analysis of the deposited data

How the results depend on the processing

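No paired analysis was possible because 1 Control and 1 RV-Cre library were all there was to compare. The main counts of p53 and its targets were 1 higher and 5 lower. The count of higher members was 3 with no expression minimum, 7 with a threshold of 1.5-fold, 2 with totals without *Rn45s* and 7 with *Gapdh* scaling. Of all genes, 2847 of 12112 were higher at 1.5-fold and 2960 of 12181 with *Gapdh* scaling. These shares are near those of the members, so both counts of 7 are no result about the list. With no minimum 3265 of 15777 genes were higher, and without *Rn45s* 1938 of 12147. The count of higher members was 0 with a log2 minimum of 6, a threshold of 3-fold or a pseudocount of 10. Library totals, DESeq2 size factors and quantile normalization also gave 0 members. In that order, 734 of 9688, 1008, 1410, 1697 and 1691 of 12112, and 1511 of 12064 genes were higher. These counts of members, from 0 to 3, are no result about the list either. The count of lower members was 7 at 1.5-fold, 6 with no minimum, 3 with *Gapdh* scaling and 2 at 3-fold. It was 4 with a log2 minimum of 6 or of 4 in both libraries. A pseudocount of 10, totals without *Rn45s* and leaving out genes of overlapping exons also gave 4. Of all genes, 2777 of 12112 were lower at 1.5-fold, 669 of 12112 at 3-fold and 780 of 12181 with *Gapdh* scaling. No minimum gave 2441 of 15777 and a log2 minimum of 6 gave 1067 of 9688. A minimum of 4 in both libraries gave 1097 of 10537, and a pseudocount of 10 gave 1263 of 12112. Totals without *Rn45s* gave 1281 of 12147. None of these counts of lower members is a result about the list. With *Gapdh* scaling, which moves the median of all genes to 0.43, the median was 0.77 for the members, 0.76 for further targets, 0.38 for upstream genes and -1.43 for DREAM genes. Further targets called higher were 5 of 24 with no minimum, 5 of 19 at 1.5-fold and 5 of 19 with *Gapdh* scaling. The shares of all genes in these settings, given above, are near those of the list. The counts of 5 are therefore no result about it. Without genes of overlapping exons, 1 of 12 further targets was called higher and their median was 0.11. Further targets called lower were 2 of 24 with no minimum, 2 of 19 at 1.5-fold and 2 of 20 with quantile normalization. They were 0 of 15 with a log2 minimum of 6 and 0 of 17 with a minimum of 4 in both libraries. Of all genes, 1612 of 12064 were lower with quantile normalization, and the other counts are given above. Counts this small are no result about the list. Of 23 upstream genes, 4 were called higher at 1.5-fold and with *Gapdh* scaling and 0 at 3-fold. Called lower were 5 at 1.5-fold and 1 at 3-fold. The counts of all genes in these settings are given above. None of these counts of upstream genes is a result about the list. Without genes of overlapping exons, 12 of 13 DREAM genes were lower, with a median of -2.23. Of the 31 members, each under 8 pseudocounts and scalings, 223 log2 ratios stayed inside their counting interval and 25 did not. Most of the 25 came with scaling to *Gapdh*. The others were those of *Rps27l* with quantile normalization and with totals without *Rn45s*. No called member changed sign, whereas *Mdm2*, which was not called, did. The causes were not tested. Members of few reads, such as *Gadd45a*, *Plk2*, *Perp* and *Dcxr*, have intervals too wide to place them against 2-fold.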

Other observations

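Genes next to the called members on the chromosome, among those past the expression minimum, were read on both sides of each. The start of *Trp53* lies 97 bases from *Wrap53*, which encodes a telomerase-associated protein. *Wrap53* had 295 reads (Control) and 254 (RV-Cre), a ratio of 0.972 (95% counting interval 0.818 to 1.15), beside 0.493 for *Trp53*. The neighbour on the other side, *Shbg*, at 18408 bases, had 5 and 60 reads.

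*Gtse1* lies between *Ttc38* and *Trmu*, at distances of 868 and 2735 bases. *Ttc38* had 86 and 135 reads, a ratio of 1.77 (1.34 to 2.35), and *Trmu*, which encodes a mitochondrial tRNA-modifying enzyme, 93 and 167 reads, a ratio of 2.03 (1.56 to 2.64), while *Gtse1* was at 0.121. *Tnfrsf10b*, at 0.221, lies 358 bases from *4930480K23Rik*, which had 17 and 15 reads, a ratio of 0.996 (0.463 to 2.12). On its other side, at 578 bases, *Rhobtb2* had 242 and 166 reads, a ratio of 0.774 (0.632 to 0.947). *Gadd45a*, at 0.403, lies 13734 bases from *Gng12*, a G protein subunit gene with 420 and 153 reads and a ratio of 0.411 (0.339 to 0.496). Its neighbour on the other side, *Serbp1*, at 229571 bases, had 32258 and 23038 reads, a ratio of 0.806 (0.792 to 0.820).

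The neighbours of *Plk2*, which was at 2.05, were far away, *Pde4d* at 439074 bases and *Gpbp1* at 1024835. *Pde4d* had 398 and 499 reads, a ratio of 1.41 (1.24 to 1.62). *Gpbp1* had 1690 and 1284 reads, a ratio of 0.857 (0.797 to 0.922). The neighbours of *Pmaip1*, at 0.347, were *Lman1* at 455968 bases and *Gm9926* at 38619. *Lman1* had 2100 and 1313 reads, a ratio of 0.706 (0.658 to 0.756), and *Gm9926* had 4 and 25 reads. These neighbours were looked up after the members' values were known, and no cause of these differences was tested.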
